A study of Homo sapiens with 8 samples.

Results

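The genes described here encode the R2TP complex and the prefoldin-like proteins that travel with it. They are RUVBL1, RUVBL2, RPAP3, PIH1D1, URI1, UXT and PDRG1. They were chosen by name as members of that particle and were found by their Ensembl identifiers in the count tables of both cell lines, so they are 7 of the 60664 gene identifiers listed there. For each gene, ribosomes recovered with a chaperone were set against all ribosomes of the same line.

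R2TP is a co-chaperone of Hsp90 that helps to assemble large protein machines, among them RNA polymerase II, the small nucleolar ribonucleoproteins and the phosphatidylinositol 3-kinase-related kinases (PIKKs). RUVBL1 and RUVBL2 are AAA+ ATPases that form its ring, RPAP3 is the scaffold that binds Hsp90 through its tetratricopeptide repeats, and PIH1D1 is the adaptor that recognises phosphorylated clients. URI1, UXT and PDRG1 are relatives of the subunits of prefoldin (PFD), the chaperone that hands actin, tubulin and other chains to the chaperonin TRiC, and they assemble with the prefoldin subunits PFDN2 and PFDN6 into a separate, prefoldin-like module.

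The data are selective ribosome profiles of U2OS, a line of human osteosarcoma cells. The TRiC libraries came from a monoclonal line of genotype CCT4-Halo, in which a HaloTag sits in a loop of the TRiC subunit CCT4, and the PFD libraries from a monoclonal line of genotype PFDN4-Halo, in which the tag follows the C terminus of the prefoldin subunit PFD4. All cells received cycloheximide at 100 µg ml-1 for 1 min and the crosslinker DSP at 2 mM for 30 min, and the ribosome-protected fragments (RPFs) of the whole ribosome pellet (input) and of the anti-HaloTag pulldown were sequenced. Input and pulldown of each line make 4 groups, and each held 2 libraries. Each tagged line is a single clone, so a difference between the lines is also a difference between clones. The methods call them biological replicates without saying whether they came from separate cultures, and p-values measure the spread between these samples only.

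The 8 libraries held between 9523128 and 32637658 counts, the lowest being PFD pulldown replicate 1 and the second PFD input also being shallow at 10254334. Replicates differed far more in the PFD line, where the common dispersion (the squared coefficient of variation between replicates estimated by edgeR) was 0.331, than in the TRiC line, where it was 0.0153. Levels are given as CPM, counts scaled to a common library size after TMM normalisation (edgeR's correction for size and composition) over the 8 libraries. Of 8 bone and mesenchymal marker genes, 8 were above 1 CPM in both libraries of each TRiC group and 7 in both libraries of each PFD group, the exception being COL1A2, and their summed level was 9010 to 10504 CPM in the TRiC libraries and 20507 to 25520 in the PFD libraries. Most of that gap was FN1, at 1725 CPM in the TRiC inputs and 12451 in the PFD inputs, whereas SPARC (3104 against 2234) and CDH2 (385 against 288) were higher in the TRiC inputs. The 4 blood markers summed to at most 0.275, and the 4 epithelial markers to between 9.90 and 31.3. The part of this difference between the lines in the results below was not tested.

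The reading frames of the members begin at the sites printed here, 5′ to 3′, with the start codon in capitals. They are shown because every value below is a count of fragments of such mRNAs. The bases are those of GENCODE release 44 transcripts on hg38.
RUVBL1: gtctgcaaaATGaagattgaggaggtgaag
RUVBL2: gtgagcatcATGgcaaccgttacagccaca
RPAP3: cagaccataATGacttcagcaaataaagca
PIH1D1: cccagggccATGgcgaacccgaagctgctg
URI1: gggcccgtcATGgaggcgcccaccgtggag
UXT: gagcccatcATGgcgacgccccctaagcgg
PDRG1: gtgggcgctATGctatcacccgaggcagag

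Of these windows, 5 lie within a single exon. They are at chr3:128123704-128123733 on the minus strand for RUVBL1, chr19:49451554-49451583 on the minus strand for PIH1D1, chr19:29942539-29942568 on the plus strand for URI1, chrX:47658907-47658936 on the minus strand for UXT and chr20:31951941-31951970 on the minus strand for PDRG1. The RUVBL2 window joins chr19:48993903-48993923 and chr19:48999319-48999327 on the plus strand. The RPAP3 window joins chr12:47702820-47702846 and chr12:47705952-47705954 on the minus strand.

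RUVBL1 and RUVBL2 are paralogues, so fragments of one could in principle be counted for the other. Both carry the Walker A motif of ATPases, where the nucleotide is bound, and the stretch that encodes it shows how far the mRNAs have diverged. The capitals mark the 8 codons of the motif.
RUVBL1: gcaGGACCTCCTGGAACTGGCAAGACAgct
RUVBL2: gctGGCCAGCCGGGCACGGGGAAGACGgcc

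These windows match at 20 of 30 bases. Positions are counted with the A of the start codon as base 1. The RUVBL1 window starts at base 205 and joins chr3:128113015-128113020 and chr3:128119328-128119351 on the minus strand. The RUVBL2 window starts at base 226 and lies at chr19:49004379-49004408 on the plus strand. The proteins share 196 of 443 aligned residues (44.2%), and the longest run of coding bases that both mRNAs hold is 20 bases, shorter than a footprint of 28 bases. No 28-base stretch within a coding exon of RUVBL1, RUVBL2, RPAP3, PIH1D1, UXT or PDRG1 occurs elsewhere in hg38 as an exact match. For URI1, 22 of 1581 coding stretches (1.39%) do, and fragments from there would have been lost because the authors kept unique alignments only. A stretch across an exon junction has no copy at its own locus, so a lone copy of it elsewhere was not seen by this count. Matches with mismatches were not searched.

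The genes lie at separate loci, although RUVBL2, PIH1D1 and URI1 share chromosome 19. RUVBL1 (ENSG00000175792) spans chr3:128064778-128153914 with 11 exons and encodes 456 residues. RUVBL2 (ENSG00000183207) spans chr19:48993562-49015970 with 15 exons and 463 residues. RPAP3 (ENSG00000005175), the longest reading frame of the set, spans chr12:47661249-47706030 with 17 exons and 665 residues.

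PIH1D1 (ENSG00000104872) spans chr19:49446298-49453497 with 9 exons and encodes 290 residues. URI1 (ENSG00000105176) spans chr19:29923644-30016612 with 11 exons and 535 residues. The other prefoldin-like proteins are small. UXT (ENSG00000126756) spans chrX:47651796-47659180 with 7 exons and 157 residues, and PDRG1 (ENSG00000088356) spans chr20:31944337-31952046 with 5 exons and 133 residues. Exons of the antisense gene UXT-AS1 lie over 20.0% of the coding bases of UXT. The strand that was counted is not given in the sources used here, but UXT-AS1 itself was listed at 0 counts in every one of the 8 libraries. No other member has coding bases under an exon of another gene. Counted over all exon bases, 33.9% of PDRG1, 27.5% of UXT, 13.8% of RUVBL1 and 4.56% of PIH1D1 lie opposite an exon of an antisense gene.

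Ribosome density, given as CPM per coding kilobase, ranked the members within all ribosomes of each line. No mRNA levels were measured in these libraries, so the density does not separate the amount of an mRNA from the ribosomes on each copy. RUVBL2 had the highest density of the members in both lines. It stood at 163 ± 8.12 CPM per coding kilobase in the TRiC input and 192 ± 1.53 in the PFD input (SD, n = 2). Its ring partner RUVBL1 stood at 68.3 ± 2.71 and 75.5 ± 2.30. The density of RUVBL2 over that of RUVBL1 in the TRiC line was 2.54 and 2.24 for input and 2.39 and 1.98 for pulldown. In the PFD line it was 2.50 and 2.58 for input and 1.77 and 2.09 for pulldown, so RUVBL2 was the denser in each of the 8 libraries.

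In the TRiC input the order below RUVBL2 was UXT at 116 ± 6.83 CPM per coding kilobase, PIH1D1 at 91.7 ± 6.09, RUVBL1, PDRG1 at 62.8 ± 9.18, URI1 at 38.5 ± 0.756 and RPAP3 at 32.7 ± 3.22. Only RUVBL1 and PDRG1 were neighbours whose replicates overlapped. In the PFD input the order below RUVBL2 was PDRG1 at 86.2 ± 18.4, RUVBL1, PIH1D1 at 73.1 ± 26.4, URI1 at 67.7 ± 0.161, UXT at 67.2 ± 20.4 and RPAP3 at 50.3 ± 3.70, and there the replicates of each pair of neighbours after RUVBL2 overlapped. RPAP3, the scaffold, had the lowest mean density in all 4 groups. With the longest annotated coding sequence in place of the standard one, UXT came to 108 CPM per coding kilobase in the TRiC input.

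**Figure D1:**
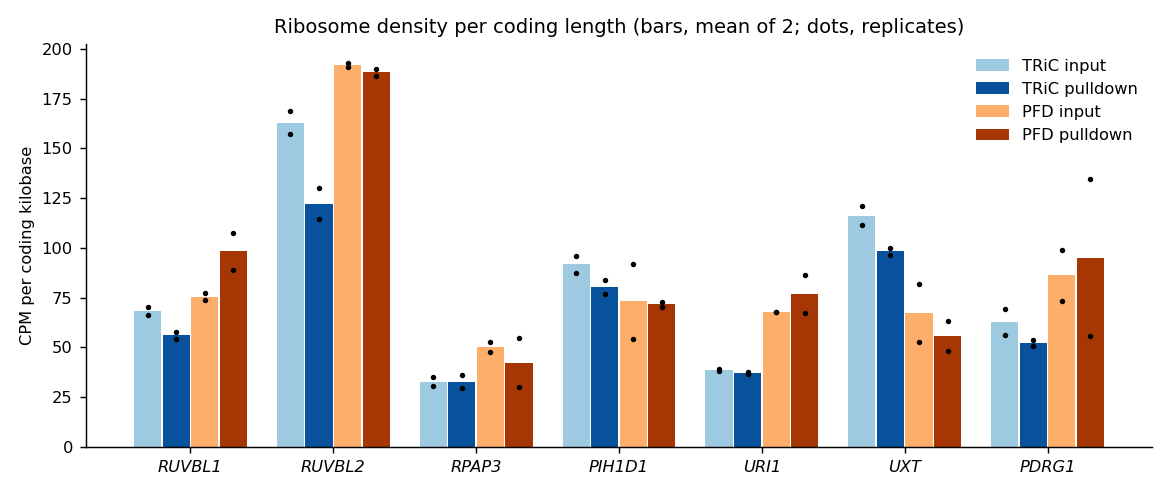
Ribosome density of the 7 genes, in CPM per coding kilobase on a linear axis, for each group. Bars are the mean of 2 libraries and dots the libraries. RUVBL2 is the highest in every group, and UXT lies below PDRG1 in both PFD groups and above it in both TRiC groups.

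In the TRiC line, RPFs of both ATPases were less frequent among TRiC-bound ribosomes than among all ribosomes, and RPFs of the other members were not called in either direction. RUVBL2 had 235 and 219 CPM in the TRiC inputs against 181 and 159 after TRiC pulldown. RUVBL1 had 91.0 and 96.3 CPM in the inputs against 74.5 and 79.1 in the pulldowns. For each of these genes both pulldown libraries lay below both inputs.

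The share of RPFs on RUVBL2 fell by 0.41 on the log2 scale (SE 0.0817, 95% interval -0.59 to -0.24, adjusted p = 0.00208 by edgeR's quasi-likelihood test with Benjamini-Hochberg adjustment over 17934 genes). This is a change of -25.0%. RUVBL1 fell by 0.29 (SE 0.0878, 95% interval -0.47 to -0.10, edgeR adjusted p = 0.0292), a change of -18.0%. TMM centres most genes on no change, so these are falls relative to that majority. The RUVBL1 call is the less firm of the pair. Scaling by library totals ended it (-0.24, edgeR adjusted p = 0.102), as did cyclic loess (-0.21, limma adjusted p = 0.103) and leaving out TRiC input replicate 1 (-0.32, edgeR adjusted p = 0.126) or replicate 2 (-0.26, edgeR adjusted p = 0.265). When all 8 libraries shared a single estimate of the spread, neither gene was called, with the same fold changes and edgeR adjusted p-values of 0.609 for RUVBL1 and 0.205 for RUVBL2.

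The adaptor PIH1D1 had 83.8 and 76.3 CPM in the TRiC inputs and 73.0 and 67.0 in the pulldowns, groups that did not overlap, and its log2 fold change was -0.19 (SE 0.0931, edgeR adjusted p = 0.164). The scaffold RPAP3 had 60.8 and 69.9 CPM in the inputs against 58.9 and 71.8 after pulldown. Its groups overlapped almost fully, and its log2 fold change of -0.0029 had a 95% interval from -0.23 to 0.22. Within R2TP, the values of the ATPases and of RPAP3 therefore sat at opposite ends of the members' range. Without TRiC pulldown replicate 1, PIH1D1 was called at -0.26 (edgeR adjusted p = 0.0491).

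Among the prefoldin-like proteins, URI1, the large scaffold of the module, had 62.7 and 61.0 CPM in the TRiC inputs and 59.2 and 60.4 in the pulldowns. UXT had 57.4 and 52.8 CPM in the inputs against 45.7 and 47.4 after pulldown, and PDRG1 had 22.6 and 27.9 against 20.5 and 21.7. In all 3 the pulldowns lay below the inputs, by the narrowest margin for URI1. The log2 fold changes were -0.05 for URI1 (SE 0.0922, edgeR adjusted p = 0.763), -0.24 for UXT (SE 0.0986, edgeR adjusted p = 0.0937) and -0.26 for PDRG1 (SE 0.135, edgeR adjusted p = 0.191). With the replicate numbers as a block, UXT was called (-0.24, edgeR adjusted p = 0.0412).

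Of the 7 members, 2 were called lower and 0 higher in the TRiC pulldown. Among all genes tested there, 10.6% were called lower, 8.64% higher and 19.2% in either direction, and among the 6092 protein-coding genes whose mean count lay within the members' range (682 to 5852 counts) 18.6% were called lower and 9.95% higher. The 2 of 7 members is thus close to the share in genes of like depth. All 7 fitted values were below 0, that of RPAP3 at -0.0029, and so were 60.4% of the coding genes of like depth. The median of the 7 was -0.24, against -0.0032 for all genes tested and -0.07 for the coding genes of like depth. Of the latter, 7.47% had a lower value than RUVBL2 and 18.7% a lower value than RUVBL1. Groups that did not overlap, with the pulldowns lower, were found for 6 of the 7 members and for 31.2% of all genes tested. The opposite order was found for 0 members and for 29.3% of genes. Neither order was counted among the coding genes of like depth. RPAP3 turned above 0 under each other scaling, and URI1 under cyclic loess.

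**Figure D2:**
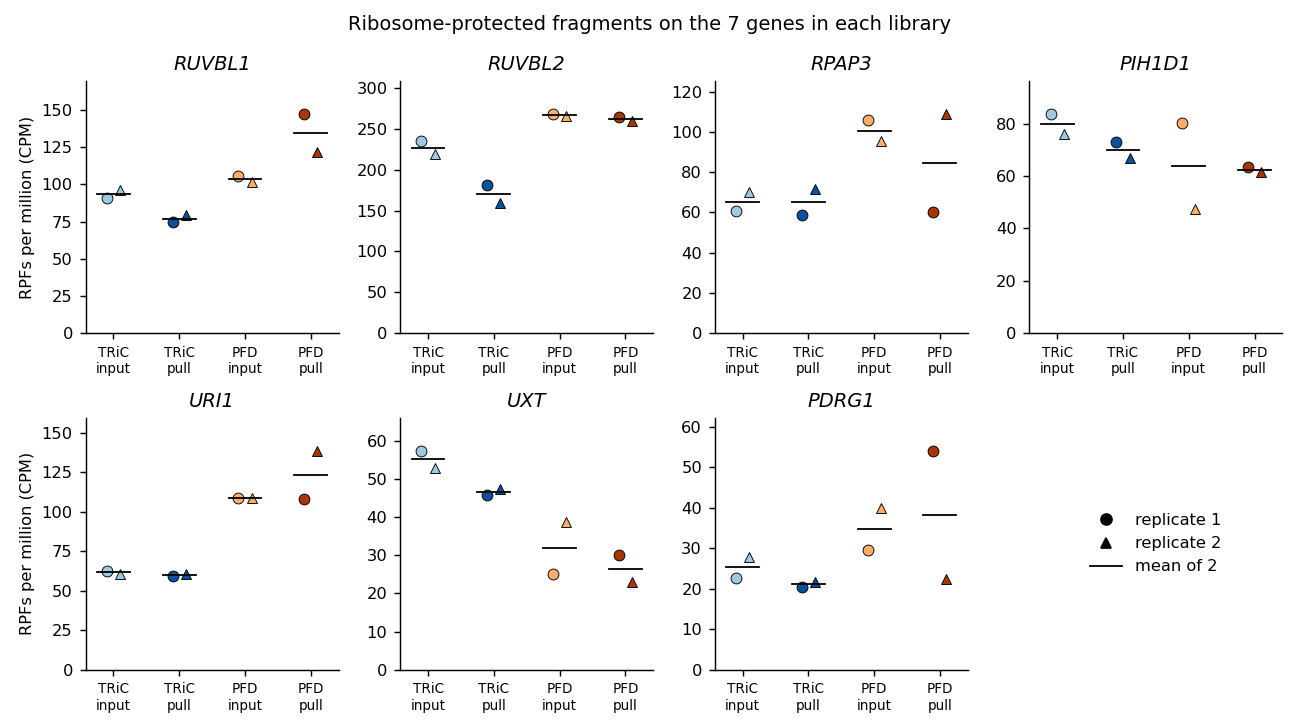
RPFs on each of the 7 genes in each library, in CPM on linear axes that start at 0. Circles are replicate 1, triangles replicate 2 and lines the mean of 2 libraries. The TRiC pulldowns of RUVBL1 and RUVBL2 lie below their inputs, RUVBL1 lies above its inputs in both PFD pulldowns, and the replicates of PDRG1 in the PFD pulldown are 54.1 and 22.4 CPM.

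In the PFD line no member passed the test, and the replicates of several members lay far apart. RUVBL1 had 106 and 101 CPM in the PFD inputs against 147 and 122 in the PFD pulldowns. It was the only member whose pulldowns both exceeded both inputs, a pattern found in 17.9% of all genes tested. Its log2 fold change was 0.40 (SE 0.180, 95% interval -0.02 to 0.81, unadjusted p = 0.0602 and adjusted p = 0.731 by edgeR). RUVBL2 had 268 and 265 CPM in the inputs against 265 and 259 after pulldown. Its pulldowns were lower by a margin of under 1 CPM, and this order of groups was found in 20.3% of genes. The log2 fold change of RUVBL2 was -0.01, and with a 95% interval from -0.28 to 0.26 it was the most closely bounded of the 7.

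RPAP3 had 106 and 95.3 CPM in the PFD inputs against 60.0 and 108.9 after pulldown, so that its pulldowns lay on both sides of its inputs. PIH1D1 had 80.1 and 47.5 CPM in the inputs against 63.4 and 61.6 after pulldown. Here the inputs were the scattered group, differing 1.69-fold. The log2 fold changes were -0.24 (SE 0.265, edgeR adjusted p = 0.950) for RPAP3 and -0.02 (SE 0.280, edgeR adjusted p = 0.999) for PIH1D1.

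URI1 had 109.1 and 108.7 CPM in the PFD inputs against 108.2 and 138.8 after pulldown, with a log2 fold change of 0.19 (SE 0.172, edgeR adjusted p = 0.926). UXT had 25.0 and 38.7 CPM in the inputs against 30.0 and 22.9 after pulldown, and PDRG1 had 29.4 and 39.9 against 54.1 and 22.4. The groups of all 3 overlapped, and the pulldown replicates of PDRG1 differed 2.41-fold. The 95% intervals of the log2 fold change ran from -1.12 to 0.61 for UXT and from -0.89 to 1.22 for PDRG1, and both intervals hold changes of 1.5-fold in either direction.

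In the PFD comparison 0 of 7 members were called by edgeR, 0 had an unadjusted p under 0.05, and DESeq2 called 0 as well. Of all 14111 genes tested edgeR called 0.241%, 0.0496% higher and 0.191% lower, and DESeq2 3.78%. Of the members 3 values were above 0 and 4 below, with a median of -0.01 against -0.00048 for all genes tested. A single library decided several of these values. Without PFD pulldown replicate 2, the deeper of the pulldowns, RUVBL1 was called at 0.56 (edgeR adjusted p = 0.0243) and RPAP3 at -0.70 (edgeR adjusted p = 0.0218), whereas without PFD pulldown replicate 1 they were at 0.21 and 0.09 and not called. PDRG1 ran from -0.66 to 0.69 over the libraries left out in turn.

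**Figure D3:**
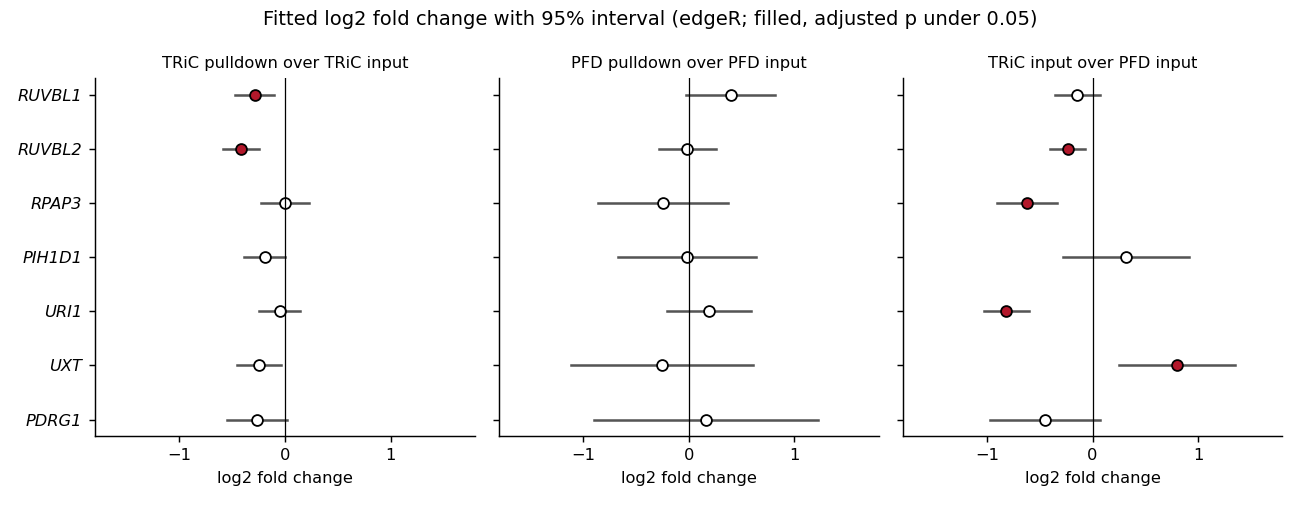
Fitted log2 fold change of each gene with its 95% interval, for the TRiC pulldown over its input, the PFD pulldown over its input, and the TRiC input over the PFD input. Filled points have an edgeR adjusted p under 0.05: 2 genes in the TRiC pulldown, 0 in the PFD pulldown and 4 between the inputs.

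Whether the chaperones differed was tested as the difference between the TRiC and the PFD log2 fold change over all 8 libraries. RUVBL1 had the largest difference of the 7, at -0.66 (SE 0.175, 95% interval -1.06 to -0.26, unadjusted p = 0.00502), but did not pass the adjustment by edgeR (adjusted p = 0.195). Both TRiC pulldowns lay below their inputs and both PFD pulldowns above theirs. RUVBL2 came to -0.39 (SE 0.132, unadjusted p = 0.0184 and adjusted p = 0.255 by edgeR). The other 5 ran from -0.39 for PDRG1 to 0.24 for RPAP3. In all, 0 of the 7 differences were called by edgeR, beside 0.0371% of the 18855 genes tested, and 2 had an unadjusted p under 0.05. DESeq2 called 1, RUVBL1 at -0.68 (DESeq2 adjusted p = 0.0408), beside 5.91% of the 16661 genes to which DESeq2 gave an adjusted p. Without PFD pulldown replicate 2, RUVBL1 (-0.78, edgeR adjusted p = 0.00703) and RPAP3 (0.76, edgeR adjusted p = 0.0321) were called.

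Where the members lie among all genes tested is shown in the plot of fold change against mean count.

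**Figure D4:**
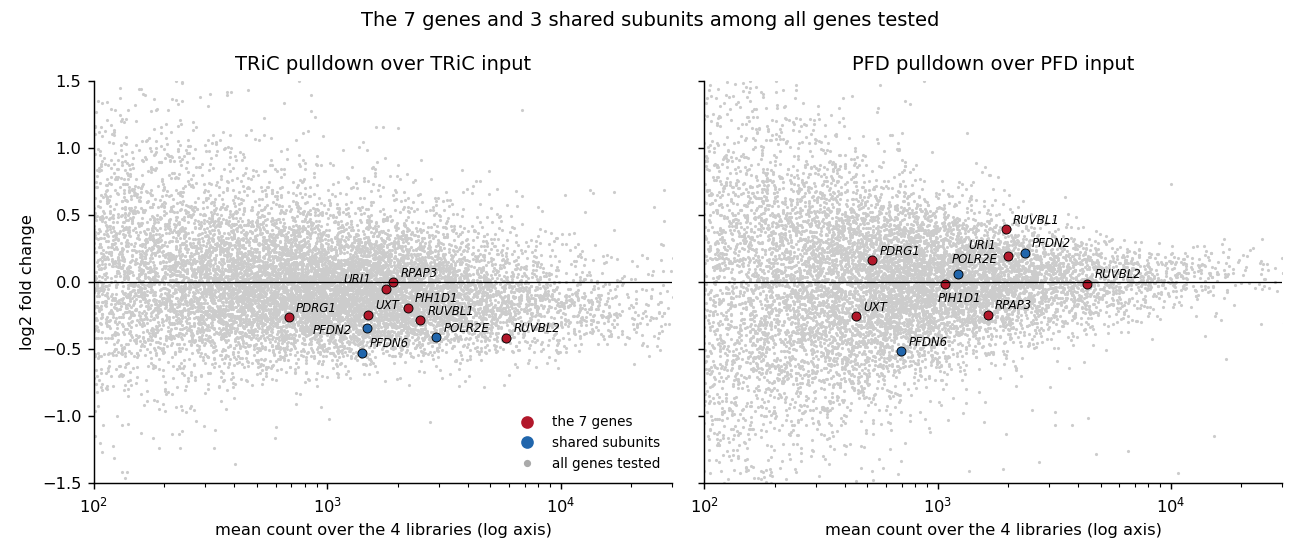
Log2 fold change of the pulldown over its input against the mean count over the 4 libraries of the line (log axis). Grey points are all genes tested with values inside the axes, red the 7 genes and blue the shared subunits PFDN2, PFDN6 and POLR2E. In the TRiC line RUVBL2, at -0.41, lies above 7.47% of the coding genes of like depth. In the PFD line RUVBL1, at 0.40, lies above 91.2% of such genes.

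Among total ribosomes, the lines stood furthest apart for URI1 and UXT of the 7 members. URI1 had 62.7 and 61.0 CPM in the TRiC inputs against 109.1 and 108.7 in the PFD inputs, and UXT had 57.4 and 52.8 against 25.0 and 38.7. The 2 partners therefore differed between the lines in opposite directions, although URI1 had more CPM than UXT in every input. The density of URI1 over that of UXT was 0.322 and 0.340 in the TRiC inputs, and 1.28 and 0.828 in the PFD inputs. URI1 was lower in the TRiC input by a log2 difference of -0.82 (SE 0.0854, edgeR adjusted p = 0.00159), and UXT was higher by 0.80 (SE 0.221, edgeR adjusted p = 0.0344).

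RPAP3 was also lower in the TRiC input, with 60.8 and 69.9 CPM against 106 and 95.3 (log2 difference -0.62, SE 0.114, edgeR adjusted p = 0.0103), and RUVBL2 was lower by a smaller step, with 235 and 219 against 268 and 265 (-0.24, SE 0.0668, edgeR adjusted p = 0.0373). RUVBL1, at 91.0 and 96.3 against 106 and 101 CPM, differed by -0.15 (edgeR adjusted p = 0.232). PDRG1 differed by -0.45 (edgeR adjusted p = 0.144), and PIH1D1, whose groups overlapped, by 0.32 (edgeR adjusted p = 0.349). The tagged gene PFDN4 itself was higher in the TRiC input by 1.97 (SE 0.188, edgeR adjusted p = 0.00115).

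Between the inputs 3 members were called lower and 1 higher in the TRiC line, beside 17.7% lower and 22.6% higher, or 40.3% in all, of the 16341 genes tested, and beside 30.3% lower and 24.5% higher of 5667 coding genes of like depth. Groups did not overlap in 6 members, 5 of them lower and 1 higher, against 32% and 41.8% of all genes. The median of all genes was 0.11 with TMM and -0.03 under cyclic loess, so a difference of that size cannot be read. All 7 members kept their sign in each of 9 alternatives. The call of RUVBL2 was lost under cyclic loess (-0.11), without the filter (-0.19), in a fit of all 8 libraries (-0.24), and without TRiC input replicate 1 (-0.26) or 2 (-0.17). RPAP3 was not called in the fit of all 8 libraries (-0.62) or without TRiC input replicate 1 (-0.50), and UXT not without TRiC input replicate 1 (0.76). Without PFD input replicate 1, PIH1D1 (0.76) and PDRG1 (-0.65) were called as well, and without the filter PIH1D1 was (0.36). Without PFD input replicate 2, UXT came to 1.17. URI1 was called in each of the 9. Clone, tag and library preparation cannot be told apart in this comparison. Nor can fewer cells making a protein and fewer RPFs per cell in bulk libraries.

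The other subunits of the particle were read in the same way. In the TRiC pulldown 4 of them were tested, of which 3 were called lower and 0 higher. Among all genes tested 10.6% were called lower, and among coding genes of like depth to the members 18.6%. The 3 were PFDN2 and PFDN6, which the particle shares with canonical prefoldin, and POLR2E, which it shares with RNA polymerases. DNAAF10 was at -0.18 (edgeR adjusted p = 0.903). PFDN6 had 56.5 and 56.3 CPM in the TRiC inputs and 42.4 and 35.9 in the pulldowns (log2 fold change -0.53, SE 0.105, edgeR adjusted p = 0.00236). POLR2E had 123.7 and 103.7 CPM against 90.3 and 80.6 (-0.41, SE 0.0975, edgeR adjusted p = 0.00700), and PFDN2 had 53.6 and 58.7 against 43.7 and 44.7 (-0.35, SE 0.0990, edgeR adjusted p = 0.0205). In the PFD pulldown none of PFDN6, POLR2E and PFDN2 was called by edgeR, at -0.52, 0.06 and 0.22. Of the 3 calls in the TRiC pulldown, that of PFDN2 was lost with library totals, under cyclic loess and without TRiC input replicate 2, those of PFDN2 and POLR2E without TRiC input replicate 1, and all 3 in the fit of all 8 libraries.

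The WD repeat protein DNAAF10 had between 0 and 37 counts and ASDURF between 0 and 8, and the coding bases of both lie wholly (100%) under exons of other genes on the same strand, so reads on them cannot be told apart from reads of those genes. PFDN2 and POLR2E also differed between the inputs, by -1.19 and 0.61 (edgeR adjusted p = 0.00115 and 0.0107). The order of PFDN2 between the lines was that of URI1, and the order of POLR2E that of UXT.

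The further partners and clients were taken as lists. In the TRiC pulldown, 6 of 12 genes of the small nucleolar and U4/U5 ribonucleoproteins were called lower and 0 higher. Of these genes 12 of 12 were below 0, as were 60.4% of coding genes of like depth to the members, and the median of the 12 was -0.25. NHP2 (-0.51) and NOP10 (-0.50), both proteins of the box H/ACA particle, fell most. Of 16 genes of RNA polymerase II and its assembly, 5 were called lower and 0 higher (median -0.27), led by the small subunits POLR2L (-0.77) and POLR2K (-0.48), and of 6 canonical prefoldin subunits 3 were lower and 0 higher (median -0.31), namely PFDN6, VBP1 (-0.37) and PFDN2. PFDN2 and PFDN6 are counted in the last list and as subunits of the particle. These counts stand beside 10.6% called lower and 8.64% called higher among all genes tested, and 18.6% and 9.95% among coding genes of like depth to the members. Without TRiC input replicate 2, the genes called lower were 3 of the ribonucleoproteins, 2 of RNA polymerase II and 1 of canonical prefoldin, and without TRiC input replicate 1 they were 4, 3 and 2. Without TRiC pulldown replicate 1, 9 RNA polymerase II genes were called lower and 1 higher, and without TRiC pulldown replicate 2, 3 were lower. Cyclic loess left 3 of the ribonucleoproteins. Calls among all genes tested also moved with each library left out.

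Of 6 PIKK clients, which are such kinases and their relatives, 3 were called higher and 0 lower, and the median was 0.25. The 3 were SMG1 (0.54), ATM (0.51) and TRRAP (0.33), whereas ATR (0.18), MTOR (-0.01) and PRKDC (-0.04) were not called. TELO2, the adaptor that links these proteins to R2TP, was called higher (0.61, SE 0.0935, edgeR adjusted p = 0.000303). It was the 1 gene called higher of 14 linkers, adaptors and Hsp90 genes, in which AAR2 (-0.44) and HSP90AB1 (-0.24) were lower. The median of the 14 was -0.14, and TTI1 (-0.05) and TTI2 (-0.27) of the same list were not called. Beside the counts of these lists stand 8.64% called higher and 10.6% called lower among all genes tested. Among coding genes of like depth to the members the shares were 9.95% and 18.6%. Of 28 genes of the chromatin remodellers that contain RUVBL1 and RUVBL2, 6 were higher, led by INO80D (0.59) and EPC2 (0.51). Of the same 28, 3 were lower, led by VPS72 (-0.51) and ZNHIT1 (-0.44), and the median was -0.12. Those 6 and 3 became 1 and 0 without TRiC input replicate 1, 3 and 2 without TRiC input replicate 2, 6 and 6 without TRiC pulldown replicate 1, and 4 and 2 without TRiC pulldown replicate 2, and without TRiC input replicate 2 the PIKK clients called higher were 2. Of 4 ciliary homologues tested 0 were called by edgeR (median -0.24). The median of each of these lists in the TRiC pulldown was on the same side of 0 with library totals and under cyclic loess. In the fit of all 8 libraries 0 genes of these lists were called by edgeR, beside 31 of all genes tested.

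In the PFD pulldown 0 genes of any of these lists were called by edgeR. DESeq2 called 1 linker or adaptor gene higher, and lower 1 gene each of the RNA polymerase II, remodeller and ribonucleoprotein lists. Without PFD pulldown replicate 2, the median of the canonical prefoldin genes went from -0.16 to -1.10. That of the other subunits of the particle was -0.48 over 4 genes tested, against 0.06 over 3, and PFDN2 and PFDN6 stand in both lists. The medians of the RNA polymerase II, remodeller and PIKK lists were then -0.04, -0.08 and 0.04. With that library left out, edgeR called genes of some of these lists, but also many more of all genes tested.

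Between the inputs 10 of the 12 ribonucleoprotein genes were lower and 1 higher in the TRiC line (median -0.79), led by DKC1 (-1.44) and FBL (-1.27). Of the linkers and Hsp90 genes 5 were lower, led by NAF1 (-1.43) and SHQ1 (-1.27), and 1 higher, HSP90AA1 (0.45). Of the RNA polymerase II genes 7 were lower, led by GPN1 (-1.44), and 1 higher, POLR2L (0.79). All genes tested stood at 17.7% lower and 22.6% higher, and coding genes of like depth to the members at 30.3% and 24.5%. Calls among all genes tested rose when a PFD input was left out and fell when a TRiC input was. The 7 RNA polymerase II genes called lower came to 2 without TRiC input replicate 1, 3 without TRiC input replicate 2 and 3 in the fit of all 8 libraries. The 5 linkers came to 3 without TRiC input replicate 2 and to 8 without PFD input replicate 2.

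Of the remodellers 5 were called on each side, the called genes running from UCHL5 at -1.08 to MRGBP at 1.22. The median was -0.06 for the remodellers and 0.11 for all genes tested. These medians were 0.12 and 0.31 without PFD input replicate 1, and -0.03 and 0.19 without PFD input replicate 2. They were 0.01 and 0.08 without TRiC input replicate 1, and -0.06 and 0.08 without TRiC input replicate 2. In the fit of all 8 libraries 3 remodellers were higher and 2 lower, beside 1986 and 1872 of 18855 genes tested. Of the canonical prefoldin subunits PFDN2 and VBP1 (-0.61) were lower and PFDN4 higher, and without PFD input replicate 1 their median went from 0.06 to 0.51. The ciliary homologues SPAG1 (-1.19) and DNAAF2 (-0.47) were lower, but these calls did not both hold when either TRiC input was left out. Of the 6 PIKK clients 0 were called by edgeR. Cyclic loess with limma called 3 of them higher, beside 2850 of 16341 genes tested. DESeq2 called 2 higher and 1 lower, beside 4648 higher and 3768 lower of those genes. With a library left out, the median of the PIKK clients ran from 0.08 to 0.15, and edgeR called some of them.

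The profiles of the members over the 8 libraries can also be set beside each other and beside all 11266 genes that averaged 100 counts or more. These correlations are of log2 CPM over 8 libraries that differ by line, so they describe these libraries only and are given with no test. URI1 and UXT had the most opposed profiles of the set (Pearson's r = -0.910). RUVBL1 and RUVBL2 were the most alike (r = 0.799), but URI1 was nearly as close to each of them (r = 0.796 with both). The single most similar gene was HPCAL1 for RUVBL1 (r = 0.988), MDH2 for RUVBL2 (0.990), MFSD2A for RPAP3 (0.989), BET1 for PIH1D1 (0.961), SLC3A2 for URI1 (0.996), MMAB for UXT (0.994) and ADNP2 for PDRG1 (0.978). The most similar fellow member had ranks from 725 for PDRG1, with RUVBL1, to 4720 for UXT, with PIH1D1. Few fellow members were set against 11266 genes, so a rank below the best gene follows from their number alone.

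The steadiness of these values under other processing differed between the lines, as the plot of the settings shows.

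**Figure D5:**
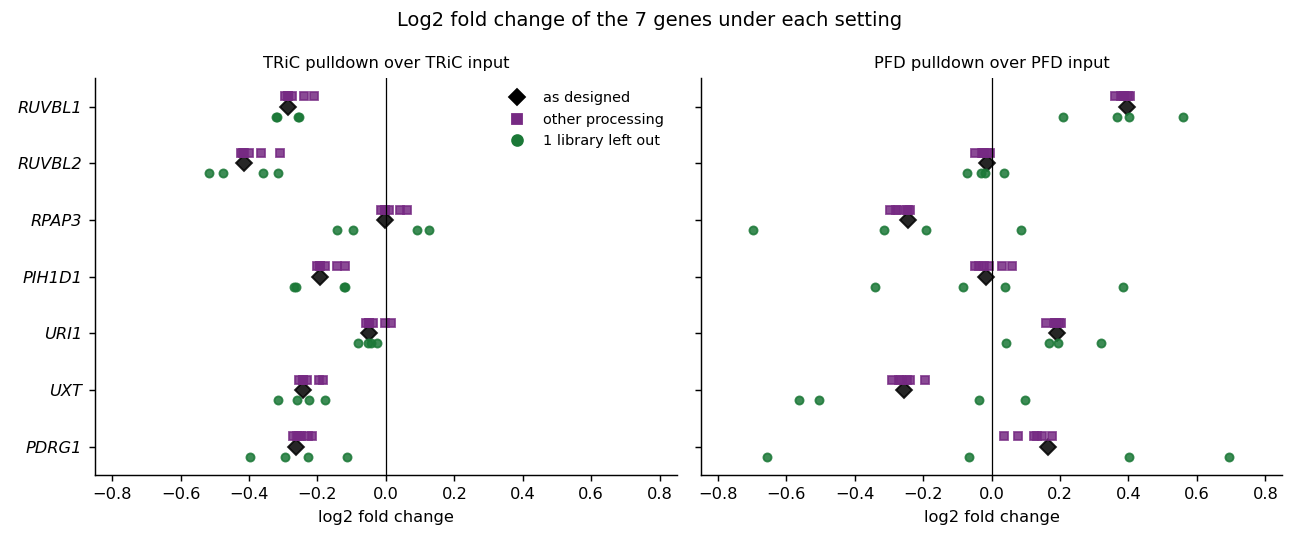
Log2 fold change of each gene in the TRiC and the PFD pulldown as designed (diamonds), under other processing (squares) and with 1 library left out (circles). RUVBL1 and RUVBL2 stay below 0 in the TRiC line in all settings, and in the PFD line PDRG1 runs from -0.66 to 0.69 over the libraries left out.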

How the data were processed

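The authors trimmed and demultiplexed reads with an awk script, extracted molecular identifiers with UMI-tools, removed reads on non-coding RNA with Bowtie2 2.4.2 and aligned the rest to hg38 with STAR 2.7.10a (at most 2 mismatches, unique alignments). The deposited values are whole-number counts per gene, not normalised, in a table for each line. Totals ran from 9523128 to 32637658. The annotation release and strand column are not given in the sources used here. The study's own test by codon position needs positions, which gene counts do not hold.

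Groups came from the sample labels. Of 60664 identifiers, 60463 were found in GENCODE release 44 on hg38. Counts were tested with edgeR 4.0.16 in R 4.3.3 (TMM, filterByExpr, quasi-likelihood test without a replicate block, called where the Benjamini-Hochberg adjusted p over all genes tested was under 0.05), for each line separately, for the difference over 8 libraries and for the inputs over 4. Alternatives were DESeq2 1.42.0, library totals, cyclic loess with limma 3.58.1, no filter, all libraries in 1 fit, a replicate block and each library left out. The scripts were tested on simulated data. All members were named, and of each list at most the 2 called genes with the largest and the 2 with the smallest change, beside subunits of the particle and the gene most like each member. TRRAP, ATR, MTOR, PRKDC, TTI1, TTI2, PFDN5, COL1A2, FN1, SPARC, CDH2 and UXT-AS1 fall outside that rule and were named after their values were seen. Members and lists were chosen with earlier results of these data known. Deviations between replicates hardly correlated between the input and pulldown of a line (0.0587 for TRiC and -0.00887 for PFD). This cannot show whether the libraries were paired.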

Additional observations from a re-analysis of the deposited data

Results flagged for a closer look

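The fitted log2 fold changes of RUVBL1 had opposite signs, -0.29 in the TRiC pulldown, which was called, and 0.40 in the PFD pulldown, which was not (edgeR adjusted p = 0.731). Every TRiC pulldown library lay below, and every PFD pulldown library above, the inputs of its line. The difference of the log2 fold changes was -0.66 (SE 0.175) and did not pass edgeR's adjusted threshold (adjusted p = 0.195), with values from -0.78 to -0.52 over the 13 alternatives and adjusted p-values from 0.00703 to 0.803.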

How the results depend on the processing

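With 2 libraries a group, the spread between replicates limits these results. The PFD pulldowns differed 2.41-fold for PDRG1 and 1.82-fold for RPAP3, and the PFD inputs 1.69-fold for PIH1D1. The lowest count of a member was 285, for UXT in PFD pulldown replicate 1. Where a library was left out, the lone library of its group was assumed to vary like the others. The cause of the changes below was not tested.

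In the TRiC comparison, 3444 genes were called, 1550 higher and 1894 lower. The split was 1801 higher and 1265 lower with library totals, and 31 genes were called in a fit of all 8 libraries and 1698 to 4698 with a library left out. The members called were 2, against 1 with library totals or cyclic loess, 0 in the fit of all 8 libraries and 1 to 3 with a library left out. RPAP3 was at 0.0098 with DESeq2, 0.042 with library totals and 0.062 under cyclic loess, and between -0.14 and 0.13 with a library left out; URI1 was at 0.015 under cyclic loess. RUVBL1 and RUVBL2 were below 0 in all 10 alternatives and called in 5 and 9 of them.

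In the PFD comparison 34 genes were called, against 533 (252 higher, 281 lower) with DESeq2, 57 under cyclic loess, 152 without the filter, 83 in the fit of all 8 libraries, 134 with the replicate block and 71 to 2434 with a library left out, the most without PFD pulldown replicate 2. Members called were 0, and 0 to 2 with a library left out. PIH1D1 was at 0.060 under cyclic loess and 0.031 with the replicate block. With a library left out, log2 fold changes ran from -0.34 to 0.38 for PIH1D1, -0.072 to 0.037 for RUVBL2, -0.70 to 0.085 for RPAP3, -0.56 to 0.10 for UXT and -0.66 to 0.69 for PDRG1.

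For the difference between the chaperones 7 genes were called, against 985 with DESeq2, 4 under cyclic loess, 511 without the filter, 0 with the replicate block and 0 to 3931 with a library left out. Members called were 0, but 1 with DESeq2 and 0 to 2 with a library left out. UXT came to -0.00027 without the filter. With a library left out, values ran from -0.33 to 0.30 for UXT, -0.11 to 0.76 for RPAP3, -0.60 to 0.15 for PIH1D1 and -0.89 to 0.36 for PDRG1.

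Between the inputs 6583 genes were called, against 3858 in the fit of all 8 libraries and 3626 to 11084 with a library left out. Members called were 4, against 2 in the fit of all 8 libraries and 1 to 6 with a library left out. With the replicate block, the TRiC comparison called 3 members and the PFD comparison 0.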
